A study of Homo sapiens with 14 samples.

Results

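The regions described here are the intervals of chromatin immunoprecipitation with sequencing (ChIP-seq) for STAT5 and BCL6 that lie in the histone gene cluster on the short arm of chromosome 6. They were chosen by position alone, as every distinct listed interval of chromosome 6 whose first base lies past 26 Mb and no further than 28 Mb of GRCh37, a window of 2 Mb. There were 418 such intervals of 152412 distinct intervals in all lists: 181 were control BCL6 intervals, 185 were control STAT5 intervals, 51 came from activator STAT5 and 1 from inhibitor BCL6. Of the 51 activator STAT5 intervals, 14 were also in the authors' list of activator intervals on a control BCL6 peak, whereas none of the window was in the corresponding list of inhibitor BCL6 intervals on a control STAT5 peak. The label of the region held in the lists: 52 of the 131 genes with a listed interval in the window were protein-coding histone genes, and 7 more were histone pseudogenes.

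Histones are the proteins around which DNA is wound. H2A, H2B, H3 and H4 form the core of the nucleosome, and H1 binds the linker DNA between nucleosomes. The genes of this cluster are short, mostly lack introns, are transcribed mainly while DNA is replicated, and often stand head to head, so that 1 short stretch of DNA is the promoter of a pair of genes. STAT5 is a transcription factor activated by cytokine receptors, and BCL6 is a zinc finger repressor. Both can bind DNA with the letters TTCNNNGAA, where N is any base.

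The cells were DLD-1, an established human colorectal adenocarcinoma line. Control cells were transfected with empty vector. Activator cells received the plasmid pEGFP-C1199Tiam1, which codes for a fragment of TIAM1, an exchange factor that activates the small GTPase RAC1, together with vehicle. Inhibitor cells received the same plasmid and 20 microM EHT 1864, a RAC inhibitor, for 16 h. Chromatin of all groups was taken 20 h after transient transfection, with the antibodies C-17 for STAT5 and N-3 for BCL6. Of the 14 libraries of the series, 9 had values in the lists: 3 of inhibitor BCL6 and 2 each of activator STAT5, control STAT5 and control BCL6. The remaining 5, of activator BCL6 and inhibitor STAT5, were not analysed here, so neither antibody can be followed through all 3 treatments. Whether replicates were separate cultures is not stated in the labels, and p-values therefore measure only the spread between these libraries, which may be technical.

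The promoters of the histone genes whose start had an activator STAT5 interval within 300 bp were searched for known letters. They are mostly not the DNA under the intervals. At HIST1H3B and HIST1H1E the intervals lie inside the gene, past the start, and at HIST1H2BG mostly so. At HIST1H2BK the nearest base is at -228 bp and the interval extends further upstream. RefSeq entries on GRCh38.p14 were at hand for HIST1H2BK (now H2BC12), HIST1H3B (H3C2), HIST1H1E (H1-4), HIST1H2BG (H2BC8) and HIST1H2AE, whose window overlaps that of its head-to-head neighbour HIST1H2BG and is not shown. HIST1H2AH and HIST1H4A are named only. The 4 sequences are the 250 bases before the RefSeq start, 5′ to 3′ on the strand of the gene, with capitals for the TATA box letters TATAAA, for the box CCAAT that many histone promoters hold, for the H2B octamer ATTTGCAT and for the STAT and BCL6 letters TTCNNNGAA, each on either strand. They lie at chr6:27146859-27147108 (minus strand), chr6:26032100-26032349 (minus), chr6:26156079-26156328 (plus) and chr6:26216689-26216938 (minus). These coordinates are not those of the GRCh37 intervals given elsewhere, and the RefSeq start may differ from the Ensembl start of the lists.
HIST1H2BK: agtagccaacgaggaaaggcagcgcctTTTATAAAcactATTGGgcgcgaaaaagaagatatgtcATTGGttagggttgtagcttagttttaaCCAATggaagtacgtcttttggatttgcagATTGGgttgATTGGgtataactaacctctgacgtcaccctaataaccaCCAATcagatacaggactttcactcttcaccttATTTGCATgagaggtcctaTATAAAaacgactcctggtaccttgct
HIST1H3B: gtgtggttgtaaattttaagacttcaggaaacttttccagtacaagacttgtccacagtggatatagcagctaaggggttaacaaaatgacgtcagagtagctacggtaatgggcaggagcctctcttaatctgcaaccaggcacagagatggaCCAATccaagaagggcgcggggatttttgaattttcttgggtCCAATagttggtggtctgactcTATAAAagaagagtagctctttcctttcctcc
HIST1H1E: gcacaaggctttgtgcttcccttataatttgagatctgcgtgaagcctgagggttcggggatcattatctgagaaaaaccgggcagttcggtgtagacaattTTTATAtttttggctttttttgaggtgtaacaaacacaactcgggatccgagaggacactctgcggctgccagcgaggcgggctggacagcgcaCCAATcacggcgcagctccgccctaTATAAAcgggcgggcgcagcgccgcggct
HIST1H2BG: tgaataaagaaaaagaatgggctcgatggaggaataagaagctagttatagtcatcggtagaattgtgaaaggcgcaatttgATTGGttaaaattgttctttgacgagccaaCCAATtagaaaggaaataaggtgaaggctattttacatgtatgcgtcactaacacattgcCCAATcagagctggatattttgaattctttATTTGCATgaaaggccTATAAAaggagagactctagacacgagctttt

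All 4 had TATAAA shortly before the start, at 27 bases in HIST1H2BK, 32 in HIST1H3B, 29 in HIST1H1E and 32 in HIST1H2BG. The octamer, a site of POU-domain factors typical of H2B promoters, lay 46 bases before the start in HIST1H2BK and 48 in HIST1H2BG. HIST1H2BK had 6 CCAAT matches, HIST1H2BG 3, HIST1H3B 2 and HIST1H1E 1. The letters TTCNNNGAA were in none of them. No match means only that these letters are not in this window.

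Promoters of 300 bases, from 250 before to 50 after the start, were found for 47 of the 52 histone genes with an interval. TATAAA was in 30 of the 47 (63.8%), against 3264 of 27305 promoters in the RefSeq table. CCAAT was in 40 (85.1%, against 35.7%) and ATTTGCAT in 19 (40.4%, against 492 of the 27305). The octamer was in 10 of 13 H2B and 8 of 10 H2A promoters, 1 of 8 H3 promoters and no H1 or H4 promoter. TTCNNNGAA was in 1 of the 47 promoters (2.13%), an H1 gene, against 7.88% of all promoters. It was in none of the 22 promoters of genes with an activator STAT5 interval and in 1 of the 25 of genes without. For ATTTGCAT the same comparison gave 10 of 22 and 9 of 25. These are counts of letters, not of binding sites.

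Nearly every histone gene of the window had an interval listed from 3000 bp upstream to 1000 bp downstream of its start. The RefSeq table has 53 protein-coding histone genes of the cluster in the window, and 52 had an interval. The exception was HIST1H2BM, placed there by its neighbours. The control lists hold 68393 BCL6 and 68320 STAT5 intervals over the genome, and the share of all genes reached was not counted. This reach is therefore not shown to be particular to histone genes. The control BCL6 list reached 42 of the 53, the control STAT5 list 46 and both control lists 36. The activator STAT5 list reached 24 and the inhibitor BCL6 list none. Starts were taken from the lists, so the 131 gene starts of the window are only those with an interval in at least 1 list. Of these, histone or not, control BCL6 reached 107, control STAT5 111 and activator STAT5 55. For the 52 histone genes among them the counts were 42, 46 and 24, a reach close to that of all 131. Of the linker histone genes, 5 of 6 H1 genes had an activator STAT5 interval, against 6 of 11 H2A, 5 of 14 H2B, 3 of 10 H3 and 5 of 12 H4 genes. In control STAT5 the families were reached in 6 of 6, 10 of 11, 12 of 14, 8 of 10 and 10 of 12 genes, and in control BCL6 in 4 of 6, 10 of 11, 10 of 14, 9 of 10 and 9 of 12. These members share intervals: 9 of the 21 activator STAT5 intervals at histone genes were listed for 2 or 3 histone starts, as were 29 of 80 in control STAT5 and 19 of 68 in control BCL6.

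The values of the lists are whole numbers, 0 or at least 2, and were read as counts of reads. Their quantity is not named in the header, and library depth is unknown. In activator STAT5 the 3 intervals at histone genes with the highest sums over both libraries were listed for linker histone genes. A core histone interval reached the same 7 in the first library, however, and another a higher 6 in the second. At HIST1H1C, 2 intervals had 7 and 5 in the first and second library. They were 26055748 to 26055886, just past the 3′ end of the gene, and 26056200 to 26056217, inside it. Both are also listed for ENSG00000245058, an ID without symbol, whose start is nearer than that of HIST1H1C. The first interval spans that start and the other lies 418 bp from it. The second interval is 18 bp wide and the equal values may belong to 1 wider peak, so they are not 2 measurements. A control STAT5 peak with 4 and 0 covers 26056233 to 26056560 of HIST1H1C. HIST1H1T, the testis-specific linker histone gene, had 6 and 5 at 26110225 to 26110480, with its nearest base at -1861 bp from the start, negative meaning upstream.

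HIST1H1B had 3 and 4 at 27836323 to 27836387 and HIST1H1A 4 and 3 at 26019778 to 26020066, an interval also listed for HIST1H3A and HIST1H4A and nearest to HIST1H3A, at -653 bp. HIST1H1E had 2 and 2 in both of its intervals, 26156596 to 26156851 and 26157054 to 26157211, which lie within the gene from 36 and 494 bp after its start. Over the 8 activator intervals at H1 genes the mean value was 4.13 in the first library and 3.5 in the second. Over the 7 at H2A genes it was 2.86 and 3.14, over the 6 at H2B genes 3 and 2.33, over the 5 at H3 genes 2.6 and 3.8, and over the 7 at H4 genes 2.71 and 2.57. The order of the core families thus differed between the libraries, while H1 was first in library 1 and second, after H3, in library 2. The 8 H1 intervals include the pair at HIST1H1C, with 7 and 5 each, which may be 1 peak. The place of H1 rests partly on that pair. No test was made between families, since they share intervals.

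**Figure D1:**
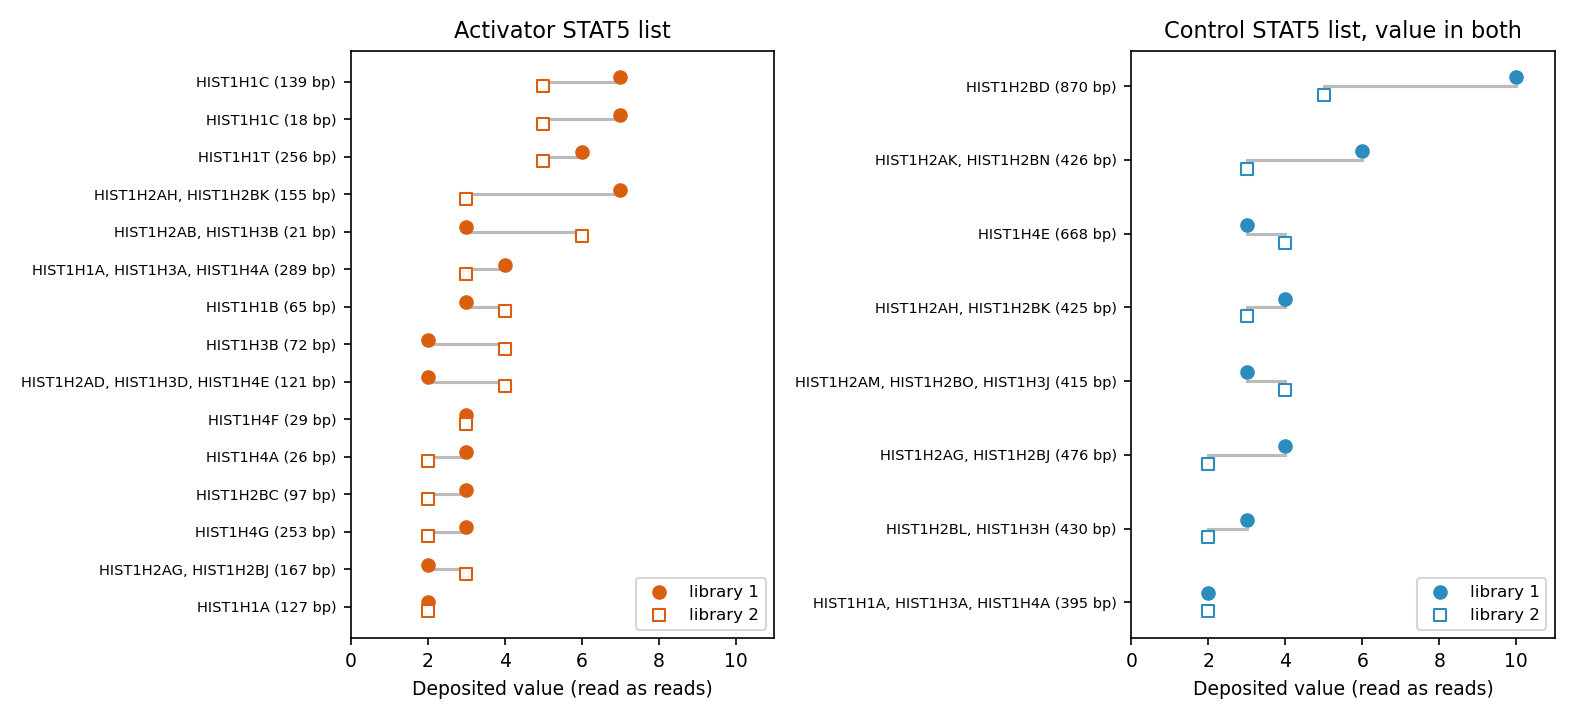
Deposited values (reads) of named intervals at histone gene starts, with 1 point per library and interval widths in parentheses. Left, the 15 activator STAT5 intervals with the highest sums, led by HIST1H1C with 7 and 5. Right, the 8 control STAT5 intervals with a value in both libraries and the highest sums, led by HIST1H2BD with 10 and 5.

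Among core histone genes, the head-to-head pair HIST1H2BK and HIST1H2AH had 7 and 3 at 27114859 to 27115013. This interval contains the start of HIST1H2AH, has 152 of its 155 bp inside that gene, and lies at -228 bp from the start of HIST1H2BK. It begins at the base after a control STAT5 peak, 27114531 to 27114858, which spans the HIST1H2BK start with 0 and 2. At HIST1H3B an activator interval of 72 bp with 2 and 4, 26032200 to 26032271, lies inside the gene, 17 bp from its start at the nearest. It fills the gap between control STAT5 peaks with 5 and 0 (26031632 to 26032199) and 0 and 6 (26032272 to 26032917). A further activator interval of 21 bp, 26032918 to 26032938, follows with 3 and 6. Each of these control peaks had reads in 1 library.

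HIST1H2BG had 2 and 2 at 26216691 to 26216901, across its start and with 181 of its 211 bp inside the gene. The interval at HIST1H2AD, HIST1H3D and HIST1H4E had 2 and 4 (26202034 to 26202154), HIST1H4F 3 and 3, and HIST1H4A, HIST1H2BC and HIST1H4G 3 and 2 each. HIST1H2AG and HIST1H2BJ shared an interval with 2 and 3, and HIST1H1A had a further interval with 2 and 2. Of the 21 intervals, 7 had 2 in both libraries, which is the lowest value the lists hold.

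Intervals with at least 3 in both activator libraries were 8 of 21 at histone genes (38.1%, exact Clopper-Pearson 95% interval 18.1 to 61.6) and 3 of 30 at the other genes of the window (10.0%, 2.11 to 26.5). On the rest of chromosome 6 they were 103 of 733 (14.1%, 11.6 to 16.8), and in the whole activator list 16.9%. The intervals cover counting error only, and the pair at HIST1H1C counts for 2 of the 8. In this and later shares, intervals at other genes are those not listed for a protein-coding histone gene. Such genes include the 7 histone pseudogenes and 13 IDs without symbol that overlap a histone gene on the opposite strand. The 3 at other genes include HMGN4, a nucleosome-binding protein gene, with 5 and 4, and ENSG00000245058, an ID without symbol whose start lies 3′ of HIST1H1C, with 4 and 4.

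Activator STAT5 intervals were not on listed control STAT5 peaks, since the list shares no base with them, but they were often directly beside one. This was so for 8 of the 21 at histone genes and for 15 of the 51 in the window (29.4%, 17.5 to 43.8), against 122 of 733 on the rest of the chromosome (16.6%, 14.0 to 19.5) and 18.9% of the whole list. Such an interval begins at the base after a control peak or ends at the base before one, and at HIST1H3B it does both. It may be the part of a wider peak that the control peak does not cover, which was not tested, and its width, position and values are then not those of a whole peak. Besides the genes already given, a control STAT5 peak with 4 and 0 ended at the base before the HIST1H4A interval, and 1 with 0 and 6 at the base before that of HIST1H4J (27790409 to 27790558, with 2 and 2).

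The 14 activator intervals on a control BCL6 peak were 27.5% of the 51 (15.9 to 41.7), against 154 of 733 (21.0%, 18.1 to 24.1) on the rest of the chromosome and 25.6% of the whole list. At histone genes they were 3 of 21 (14.3%, 3.05 to 36.3) and at the other genes of the window 11 of 30 (36.7%, 19.9 to 56.1), intervals that overlap. The 3 were the HIST1H1A interval with 2 and 2, on a BCL6 peak with 0 and 3, and a neighbouring pair upstream of HIST1H2AD and HIST1H3D, both on 1 BCL6 peak with 2 and 0 (26201823 to 26202077). At other genes, the histone pseudogene HIST1H3PS1 had 2 and 7 in activator STAT5 on a BCL6 peak with 2 and 0. ZNF391 and ZNF204P shared an interval with 5 and 2 on a peak with 0 and 2, and RNU2-62P, a U2 small nuclear RNA pseudogene, had 2 and 2 on a peak with 2 and 2. Of the 14 intervals, 3 lay on a BCL6 peak with reads in both libraries.

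In control cells the strongest STAT5 peak of the window was at HIST1H2BD, with 10 and 5, at 26158118 to 26158987 and across the gene start. It was followed by the pair HIST1H2BN and HIST1H2AK with 6 and 3 (27805277 to 27805702), across the HIST1H2BN start. HIST1H4E had 3 and 4, HIST1H2BK and HIST1H2AH 4 and 3, and the peak at HIST1H3J, HIST1H2AM and HIST1H2BO 3 and 4. HIST1H2BJ and HIST1H2AG had 4 and 2, across the HIST1H2BJ start, HIST1H3H and HIST1H2BL 3 and 2, and HIST1H3A with its neighbours 2 and 2. Of these 8 peaks, 6 touch the reach of an H2B gene, as did 33 of all 80 control STAT5 intervals at histone genes. Most of the 6 are also listed for a gene of another family, and H2B is the largest family. In the first control STAT5 library the mean value was 3.55 at H2A, 3.40 at H2B and 3.10 at H3 genes, against 2.25 at H1 and 2.31 at H4 genes. In the second library the same means were 2.40, 2.55, 2.67, 2.14 and 2.78, so the order was not the same.

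Control BCL6 had fewer such peaks at histone genes. HIST1H4E had 2 and 4 at 26205118 to 26205951, a peak that shares 550 bp with the control STAT5 peak of 3 and 4 at the same gene. HIST1H2AC with HIST1H2BC, HIST1H2BG and HIST1H3E each had a peak with 2 and 2. These were the only 4 of 68 control BCL6 intervals at histone genes with a value in both libraries (5.88%, 1.63 to 14.4). In control STAT5 they were 9 of 80 (11.2%, 5.28 to 20.3). Over the whole window the shares were 16 of 181 for BCL6 (8.84%, 5.14 to 14.0) and 20 of 185 for STAT5 (10.8%, 6.73 to 16.2), against 7.33% and 7.67% on the rest of the chromosome and 9.19% and 9.34% over the whole lists. The window was thus near the background in both lists, and most intervals had reads in 1 library alone.

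The mean value at histone genes, over intervals with a value in that library, was 2.15 and 2.49 in the control BCL6 libraries, 2.86 and 2.54 in the control STAT5 libraries and 3.29 and 3.10 in the activator STAT5 libraries. The corresponding means on the rest of the chromosome were 2.37 and 2.35, 2.38 and 2.38, and 2.57 and 2.95. The first BCL6 library was thus lower at histone genes than elsewhere, and the other 5 libraries were higher. The mean log2 ratio over these 6 libraries was 0.12 ± 0.17 (SD), with p = 0.15625 in a two-sided exact sign-flip permutation test. The ratio was higher for STAT5 than for BCL6 in control cells by 0.21 on the log2 scale, in both STAT5 libraries above both BCL6 libraries. With 2 libraries against 2 an exact permutation test cannot go below the p = 0.333 it gave.

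For all intervals of the window, no difference from the rest of the chromosome was found in the mean value per interval over the 9 libraries. The mean log2 ratio was 0.0035 ± 0.192 (SD), higher in 7 of 9 libraries, with p = 0.961 in the exact sign-flip permutation test. The 3 inhibitor BCL6 libraries rest on 1 interval. Without them the ratio was 0.077 ± 0.0587, higher in 6 of 6 libraries, with p = 0.03125 in the exact permutation test, the smallest that 6 libraries can give. That choice was made after the values were seen.

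Intervals were dense per length of DNA in the window, and for control cells not per gene start with a listed interval. Per Mb the window held 90.5 control BCL6, 92.5 control STAT5, 25.5 activator STAT5 and 0.500 inhibitor BCL6 intervals, against 23.7 control BCL6, 4.34 activator STAT5 and 0.332 inhibitor BCL6 intervals on the rest of the chromosome. Over the 4 control libraries the mean log2 ratio of intervals per Mb was 1.99. The lists hold only places near gene starts, and the window has 131 starts with an interval in any list. Starts without one are not counted, in the window or elsewhere. Of the 131, control BCL6 reached 107 and control STAT5 111, so the control lists largely set the number of starts they are divided by. The control density per such start therefore cannot show the density over all gene starts. Of the 131, 13 are IDs without symbol that overlap a histone gene on the opposite strand. Per gene start, the control BCL6 libraries had 0.786 and 0.718 intervals in the window against 0.783 and 0.787 elsewhere on the chromosome. The control STAT5 libraries had 0.672 and 0.893 against 0.729 and 0.801. The 4 ratios were 1.00, 0.912, 0.921 and 1.11, 2 of them above 1. Their mean log2 was -0.02 ± 0.13 (SD) with p = 1 in the exact sign-flip permutation test, in which 4 libraries cannot go below 0.125.

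**Figure D2:**
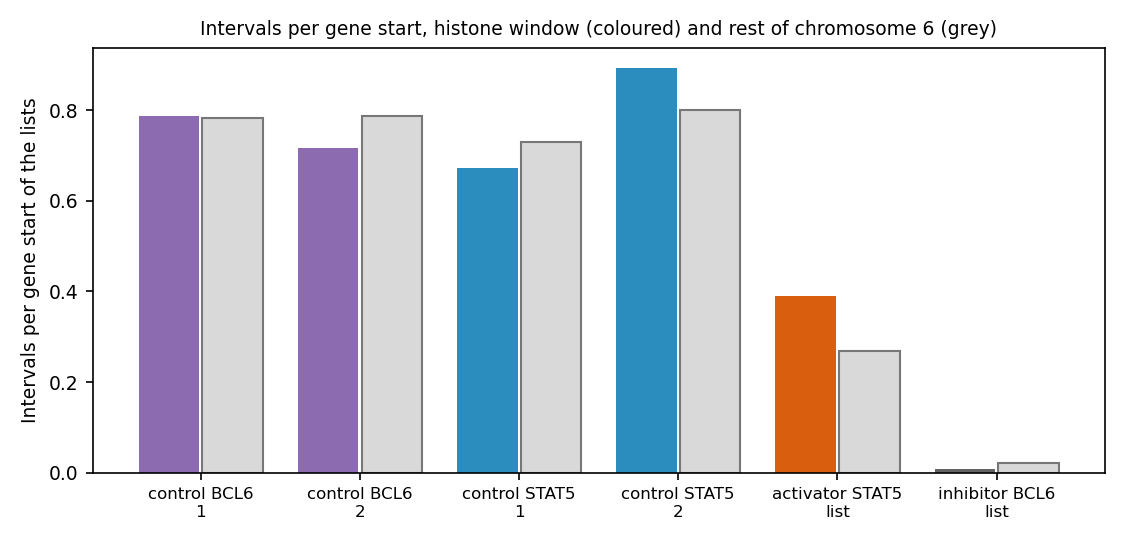
Intervals per gene start of the lists in the histone window (coloured) and on the rest of chromosome 6 (grey), for each control library and for the 2 treated lists, whose intervals need a value in every library. Control bars lie close together in each pair, and the activator STAT5 list stands at 0.389 in the window against 0.268.

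The window's share of all chromosome 6 intervals was 4.65% ± 0.596 (SD, n = 2) in control STAT5 and 4.39% ± 0.286 (SD, n = 2) in control BCL6. The difference of 0.261 percentage points gave p = 0.667 in a two-sided exact permutation test, whose smallest p is 0.333. In the activator STAT5 list the share was 6.51% (Clopper-Pearson 95% interval 4.88 to 8.46).

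The activator STAT5 list had 0.389 intervals per gene start in the window and 0.268 on the rest of the chromosome, a ratio of 1.45 (95% counting interval 1.07 to 1.93). A treated list gives 1 density, so this ratio has no replicate check and no test over libraries. Against all other autosomal places, the rest of chromosome 6 included, it was 1.19. The inhibitor BCL6 list had 0.00763 against 0.0205 per start, from 1 interval. That interval, 27530172 to 27530261, belongs to ENSG00000219738, an ID without symbol, at -649 bp, with 2, 2 and 3. An activator STAT5 interval with 2 and 2 covers 27530049 to 27530289, so it holds the same bases.

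When chromosome 6 was divided into windows of 2 Mb, 62 held at least 20 gene starts. With 51 activator STAT5 intervals the histone window was exceeded by 1, with 53, and the median was 9. Per gene start 8 windows were higher, and per 100 control BCL6 intervals, of which the histone window had 28.2 activator intervals, 6 were higher (median 16.8). For control BCL6 intervals per gene start 44 windows were higher and for control STAT5 32. In control intervals per start of the lists the histone window thus lies within the range of these windows. In activator STAT5 it lies in the upper part of the range without standing outside it.

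**Figure D3:**
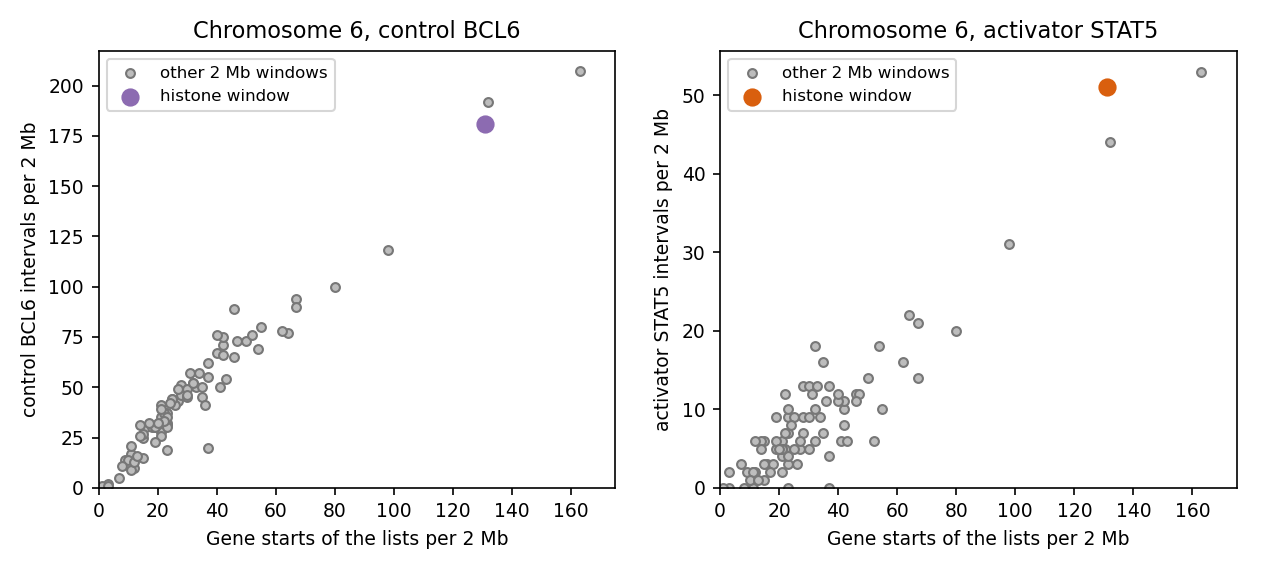
Gene starts of the lists (x) and intervals (y) per 2 Mb of chromosome 6, for control BCL6 and activator STAT5, with 1 point per window. The histone window, with 131 starts, lies at 181 control BCL6 intervals and 51 activator STAT5 intervals, along the rise of both with the number of starts.

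Around the short histone genes, with a median listed length of 474 bp, the share of intervals close to the start was higher in each of the 3 lists than at the other genes of the window. The nearest base was within 500 bp of a histone start for 34 of 80 control STAT5 intervals (42.5%, 31.5 to 54.1), 26 of 68 control BCL6 intervals (38.2%, 26.7 to 50.8) and 7 of 21 activator STAT5 intervals (33.3%, 14.6 to 57.0). At the other genes of the window these shares were 28.6%, 28.3% and 23.3%, and on the rest of the chromosome 33.8%, 32.8% and 24.8%. A histone interval was measured from the nearest of up to 3 histone starts, which shortens its distance.

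The control STAT5 list had 31 of 80 histone intervals that touched the gene itself (38.8%, 28.1 to 50.3), against 16 of 105 at other genes of the window (15.2%, 8.97 to 23.6) and 24.2% on the rest of the chromosome. For control BCL6 these were 21 of 68, 26 of 113 and 936 of 3998, and for activator STAT5 33.3%, 10.0% and 19.9%. The start itself was spanned by 13 of 80 control STAT5, 9 of 68 control BCL6 and 2 of 21 activator STAT5 intervals at histone genes, the last at HIST1H2AH and HIST1H2BG. Between 1 and 500 bp upstream of the nearest histone start lay 6 of 80 control STAT5 and 7 of 68 control BCL6 intervals. None of the 21 activator STAT5 intervals lay there. At the other genes of the window 4 of 30 activator intervals were in this band, and on the rest of the chromosome 84 of 733. With 21 intervals such a difference cannot be judged, and the list holds no base of a control STAT5 peak.

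**Figure D4:**
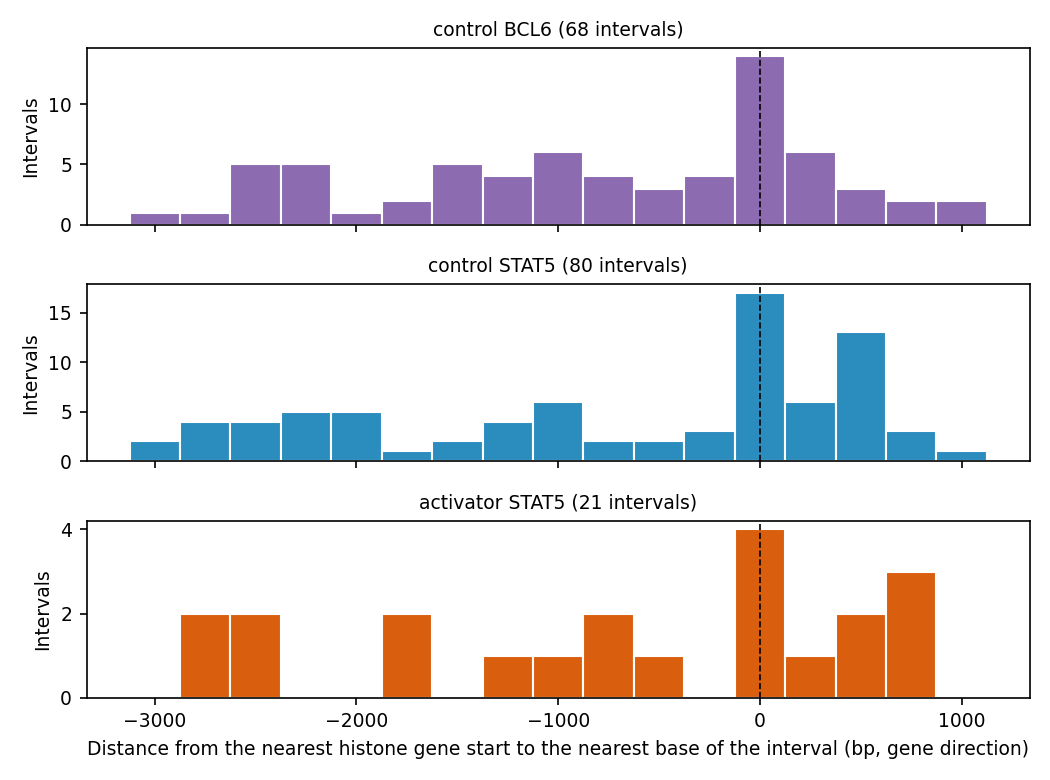
Distance in bp from the nearest histone gene start to the nearest base of each interval (x, negative upstream, 0 where the interval spans the start) and number of intervals per 250 bp (y) in 3 lists. The fullest bin holds the start in all 3, and the rest spread over the listed reach of 3000 bp upstream to 1000 bp downstream.

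The histone genes with the most intervals over the lists were HIST1H2AM, HIST1H3J and HIST1H3H with 9 each, then HIST1H2AL, HIST1H4E and HIST1H2BL with 8. HIST1H2AM and HIST1H3J are neighbours and share all of theirs, 4 control BCL6 and 5 control STAT5. HIST1H3H had 7 control STAT5 and 2 control BCL6 intervals. None of these 3 had an activator STAT5 interval.

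Histone starts stood in 6 of the 20 blocks of 100 kb, with 5 to 12 starts in each and 52 in all. These blocks held 89 control BCL6, 102 control STAT5 and 25 activator STAT5 intervals for 79 gene starts, or 1.13, 1.29 and 0.316 per start. The 14 blocks without a histone start held 92, 83 and 26 for 52 starts, or 1.77, 1.60 and 0.500 per start. Starts in the histone blocks stand close together, and histone starts share intervals. Whether this bears on the density per start was not tested. The first 3 blocks, with 32 histone starts, had 8, 6 and 6 activator STAT5 intervals. The last pair of histone blocks, with 15 starts, had 2 each, although their control STAT5 counts (17 and 18) were like those of the first 3 (17, 22 and 17).

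**Figure D5:**
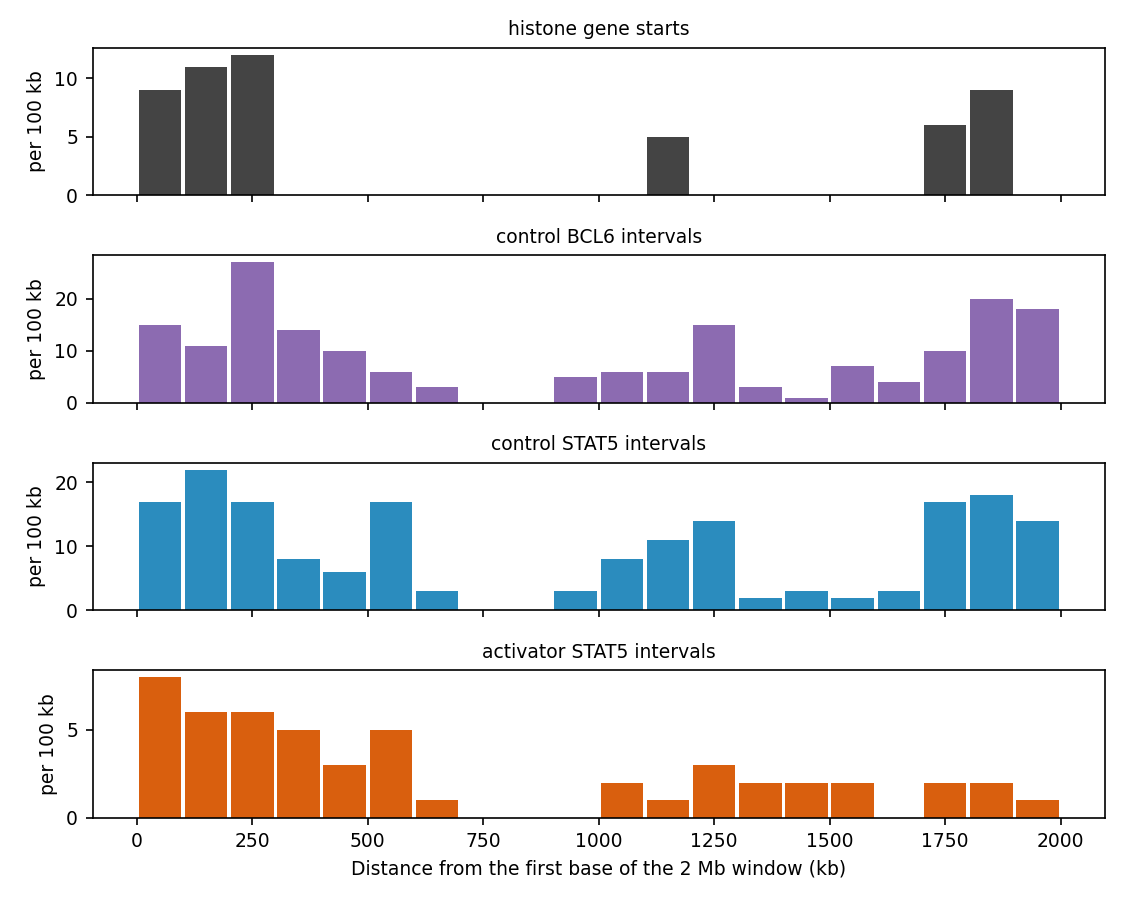
Histone gene starts and intervals of 3 lists per 100 kb (y) by distance in kb from the first base of the window (x). Histone starts fall in 6 blocks, and activator STAT5 intervals are most frequent in the first block, with 8.

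The other genes of the window had the rest of the intervals. The 7 genes named as butyrophilins, a family of immunoglobulin-like membrane proteins that modulate T cells, include the pseudogene BTN2A3P. They had 17 control BCL6, 11 control STAT5 and 4 activator STAT5 intervals, with BTN3A3 at 2 and 4 in control BCL6 and BTN3A1 at 4 and 2 in control STAT5. The 7 histone pseudogenes also had 17, 11 and 4. The 4 genes named as olfactory receptors had 12, 5 and none, and the 5 named as vomeronasal receptors 9, 8 and 1. The 4 named as zinc finger genes had 3, 6 and 2. These include the pseudogenes OR2W4P, OR2W6P, VN1R10P, VN1R11P, VN1R12P, VN1R13P and ZNF204P. Small RNA genes had 8, 6 and 2, with RNU6-471P at 2 and 3 in control BCL6. PRSS16, a thymic serine protease gene, had 2 activator intervals and 1 in each control list, and HMGN4 had 2, beside 3 in control STAT5 and 1 in control BCL6. HFE, the iron regulator mutated in haemochromatosis, had 1 control BCL6 and 2 control STAT5 intervals and no activator interval. The transfer RNA gene TRI-TAT2-3 had 2 and 5 in control STAT5.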

How the data were processed

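ChIP-seq intervals of 9 libraries in 6 lists were analysed. The submitters' processing notes name Bowtie 0.12.7, CASAVA 1.8.2 and the build GRCh37. The peak caller was not given in the sources used here. Values that the authors deposited are whole numbers per interval and library, read as counts of reads, with no normalization stated. Library totals are unknown, so values were compared only within a library. Control lists hold intervals with reads in 1 library or more, treated lists only intervals with at least 2 in every library, and treated lists share no base with control peaks of the same antibody. The deposited distances run from a gene start to the lower end of the interval, so distances to the nearest base were computed here.

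The members, lists and tests were chosen with earlier results of these data known. Symbols came from the files. Of the 131 gene IDs, 66 had one and 31 histone IDs were named from the file's description. An interval listed for several genes was counted once. Sharing meant at least 1 bp. Libraries were compared with exact permutation tests, and shares with exact Clopper-Pearson 95% intervals (SciPy 1.17.1, pandas 2.3.3, Python 3.11.15), which cover counting error only. The code was tested on simulated intervals. Named were, in the activator list, up to 15 intervals at histone genes and 5 others by highest sum of values, in each control list 8 and 4 with a value in both libraries, and the 5 histone genes with most intervals, to which HIST1H2BL, tied with the last of them, was added. Intervals named as neighbours of these, and the further activator interval at HIST1H4J and those at HIST1H1E and HIST1H2BG, were chosen after their values were seen or for the promoter rule of 300 bp. Motifs were searched on both strands in the first RefSeq promoter listed per symbol.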

Additional observations from a re-analysis of the deposited data

How the results depend on the processing

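Values are low, mostly 2 or 3 reads, and the depth of the libraries is unknown, so that a place without an interval is not shown to lack the factor. The control density per gene start (log2 ratio) changed sign per Mb (1.99) and with values of at least 3 (0.17), each with p = 0.125 in the exact permutation test. Leaving out each library in turn gave -0.0820 to 0.0147. Against all other autosomal places, the rest of chromosome 6 included, the control density was -0.17 (p = 0.125, exact sign-flip permutation test). The test cannot go below 0.125 with 4 libraries, and the sign of this density depended on the comparison. The mean value ratio, near 0, changed sign against all other autosomal places, the rest of chromosome 6 included (-0.10). It also did so with intervals of 50 bp or more (-0.0059) and with equal neighbours counted once (-4.50391e-05). Without single libraries it ranged from -0.0213 to 0.0455. Without the inhibitor BCL6 list it was 0.077, chosen after seeing the data, and then passed the threshold. The difference between STAT5 and BCL6 in the window's share ranged from -0.161 to 0.682 percentage points without single libraries. Counting only control BCL6 peaks that both libraries hold, the activator share on them was 5.88% in place of 27.5%, since few such peaks remain. By the midpoint, 31.2% of control STAT5 intervals were within 500 bp of a histone start in place of 42.5%. The activator density ratio of 1.45 was 5.88 per Mb and 2.23 for values of at least 3 in both libraries. In all, 26 alternatives, that of the control density against all autosomal places included, kept direction and side of the threshold or moved less than the spread. No paired analysis was possible because the replicate numbers come from accession order and pair no libraries.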
